A study of Mus musculus with 6 samples.

Results

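The genes described here are 43 genes of fatty acid and glycerolipid metabolism, chosen by name for their role, out of the 24499 genes in the deposited gene table. They fall into de novo synthesis (6 genes), desaturation (5), elongation (4), activation (4), glycerolipid assembly (7), phospholipid head groups (4) and oxidation (13), and all 43 passed the filter on low counts. They were measured by RNA-seq in iGCBs, which are B cells driven toward a germinal center state in culture by 40LB feeder cells, a fibroblast line of BALB/c 3T3 origin carrying CD40L and BAFF, irradiated with 120 Gy, in medium with 1 ng/ml of IL-4. Cells positive for YFP were sorted on day 3, giving 3 libraries of cKO and 3 of control cells from mice on a C57BL/6J background. The cKO mice were Eif3e fl/fl Cγ1Cre Rosa26-YFP LSL and the control mice Cγ1Cre Rosa26-YFP LSL, so both groups carried the Cre and its reporter and differed in the floxed Eif3e allele. Cγ1Cre is switched on with transcription of the Ig γ1 constant region, and YFP therefore marks cells in which Cre has acted and not the loss of Eif3e itself. The libraries summed to between 39079582 and 45504570 estimated counts, at which 3 counts equal between 0.0659 and 0.0768 CPM, a floor that covers counting error only. Eif3e, the deleted subunit of the translation initiation factor eIF3, stood at 39% of the control level in cKO libraries. The B cell markers Ms4a1, Cd79a, Cd79b and Pax5 were high in both groups, at 701 ± 22.8, 764 ± 33.1, 614 ± 26.6 and 197 ± 10.1 CPM in cKO and at 577 ± 59.6, 989 ± 35.3, 789 ± 27.9 and 140 ± 10.0 CPM in control libraries (SD, n = 3). Of the germinal center markers, Bcl6 was at 83.4 ± 3.0 CPM in cKO libraries against 104 ± 4.94 CPM in the controls, Fas at 92.3 ± 3.32 against 69.5 ± 4.31 CPM, and Mef2b at 14.6 ± 0.766 against 46.5 ± 0.728 CPM (SD, n = 3).

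Fatty acids are built in the cytosol from acetyl-CoA, which comes from citrate or acetate, is carboxylated to malonyl-CoA and is joined into a saturated chain by fatty acid synthase, and the chain is then desaturated and elongated at the endoplasmic reticulum. Once activated to acyl-CoA, a fatty acid is either esterified into phospholipids and triglycerides or carried into mitochondria by the carnitine shuttle and degraded by β-oxidation, and malonyl-CoA, the substrate of synthesis, inhibits the entry step of oxidation. Dividing B cells need membrane lipid for new cells, and germinal center B cells are known for their use of fatty acids as fuel.

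Of the 43 genes, 5 were called higher and 20 were called lower in cKO iGCBs by the quasi-likelihood test of edgeR (adjusted p below 0.05), where 24.1% of all 13296 tested genes were higher and 24.5% were lower. With a fold change over 1.5 as well, 1 gene, Dgat2, was higher and 9 genes were lower, where 10.4% of all tested genes were higher and 10.6% were lower. The 3 cKO libraries did not overlap with the 3 control libraries for 27 of the 43 genes, or 62.8%, close to the 58.7% of all tested genes. The median log2 fold change of the 43 genes was −0.20, against −0.00402 for all tested genes. Levels are given as CPM with TMM factors, in the order of replicates 1, 2 and 3 of each group, and a log2 fold change is the fitted difference of cKO from control with its standard error (SE). RNA was measured from sorted cells in bulk, in which fewer cells of a kind and less RNA per cell cannot be told apart.

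**Figure D1:**
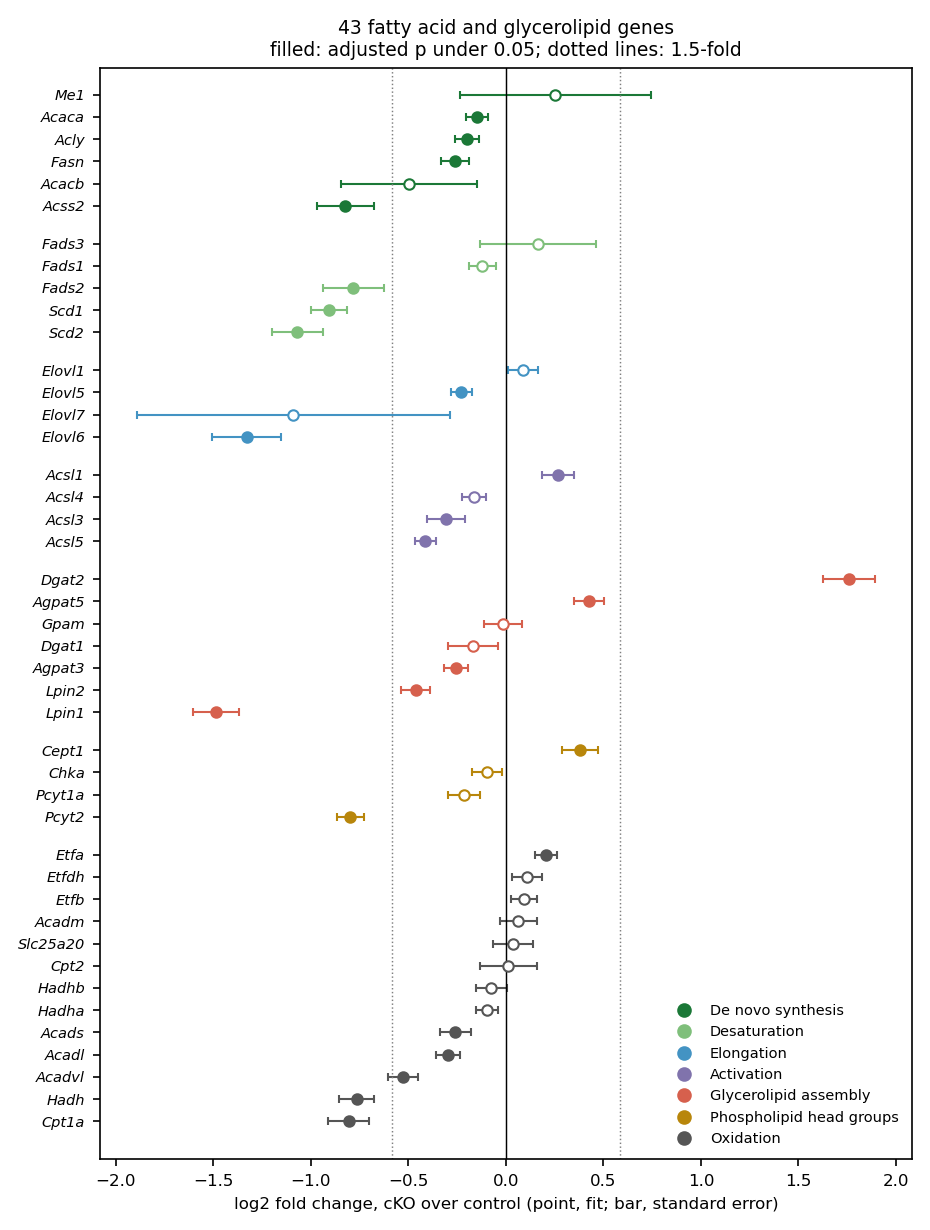
Log2 fold change of cKO over control for the 43 genes, grouped by role, with the fitted value as a point and its standard error as a bar. Filled points have an adjusted p under 0.05, and the dotted lines mark a 1.5-fold change. Lpin1 at −1.49 and Dgat2 at 1.76 lie at the extremes, and no filled point of synthesis, desaturation or elongation lies above 0.

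The sequence upstream of a gene of each of the 3 arms compared here, synthesis (Fasn), glycerolipid assembly (Lpin1) and oxidation (Hadh), shows what was searched in the promoters of the 43 genes, and these 3 were chosen after their values were seen. Each is the 250 bases before the RefSeq start on GRCm38.p6, written 5′ to 3′ on the strand of the gene, with CCAAT on either strand in capitals.
Fasn, chr11:120824548-120824797, minus strand: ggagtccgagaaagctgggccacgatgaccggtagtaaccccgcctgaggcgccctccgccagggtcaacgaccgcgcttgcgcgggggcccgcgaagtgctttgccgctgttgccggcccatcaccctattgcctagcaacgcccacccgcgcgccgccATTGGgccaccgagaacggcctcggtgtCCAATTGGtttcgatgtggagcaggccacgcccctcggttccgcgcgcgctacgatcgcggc
Lpin1, chr12:16610967-16611216, minus strand: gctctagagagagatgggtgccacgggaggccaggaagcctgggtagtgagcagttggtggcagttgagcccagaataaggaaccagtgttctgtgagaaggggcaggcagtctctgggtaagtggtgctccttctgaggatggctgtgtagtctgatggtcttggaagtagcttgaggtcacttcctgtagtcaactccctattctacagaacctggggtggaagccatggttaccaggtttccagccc
Hadh, chr3:131272102-131272351, minus strand: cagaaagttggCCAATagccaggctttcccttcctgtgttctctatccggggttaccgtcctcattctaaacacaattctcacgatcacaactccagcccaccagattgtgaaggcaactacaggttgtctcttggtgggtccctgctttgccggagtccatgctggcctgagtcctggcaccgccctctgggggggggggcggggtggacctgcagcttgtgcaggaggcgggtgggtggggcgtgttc
CCAAT, the core bound by NF-Y, began 90, 62 and 59 bases before the start in Fasn, where the last pair overlap on opposite strands, and 239 bases before it in Hadh, and Lpin1 held none in this window. Windows were given for 36 of the 43 genes, in 46 promoters. CCAAT was found in 39.1% of these 46 promoters and in 33.8% of all 32851 promoters of the table. CACCCCAC, the core of the sterol regulatory element, was found in 10.9% of the 46 and in 2.58% of all promoters, in the windows of Acsl1, Elovl7, Gpam and Pcyt1a. CACGTG, the E box, was found in 4.35% against 6.02%, in Elovl5 and Lpin2, and TGATGNAA, the core of the C/EBP-ATF response element, in 4.35% against 3.45%, in Gpam and Lpin2. All 4 motifs were searched on both strands, and a match is a description of the letters only. None of the genes past 1.5-fold that had a window, namely Acss2, Fads2, Elovl6, Lpin1, Cpt1a and Hadh, held CACCCCAC, CACGTG or TGATGNAA in these 250 bases. The Cpt1a window at chr19:3323051-3323284 lies inside the span that GENCODE gives the gene, so the bases before the GENCODE start may not have been searched. Scd1, Scd2, Fads1, Agpat5, Dgat1, Dgat2 and Pcyt2 had no window here.

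De novo synthesis was represented by 6 genes, of which 4 were lower, 0 were higher and 2 did not pass the test, with a median log2 fold change of −0.23. Acss2, the cytosolic enzyme that makes acetyl-CoA from acetate (chr2:155517948-155585724, plus strand, GRCm38), was measured at 10.1, 8.18 and 7.33 CPM in cKO and at 15.1, 13.5 and 16.7 CPM in control libraries. Every cKO library lay below every control library, and Acss2 was at 56.5% of the control level (log2 fold change −0.82, SE 0.145, adjusted p = 0.000968 from edgeR). Fasn, fatty acid synthase itself (chr11:120805846-120824547, minus strand), was at 450, 476 and 412 CPM in cKO and at 540, 489 and 576 CPM in control libraries. Its groups were also apart, by a narrow gap between cKO replicate 2 and control replicate 2, and its log2 fold change was −0.26 (SE 0.0718, edgeR adjusted p = 0.0119). Acly, which splits citrate to supply cytosolic acetyl-CoA, was at 361, 357 and 340 CPM against 394, 382 and 439 CPM (log2 fold change −0.20, SE 0.0604, edgeR adjusted p = 0.0191). Acaca, the acetyl-CoA carboxylase of the cytosol, was at 79.3, 81.4 and 75.7 CPM against 84.6, 90.1 and 87.3 CPM (log2 fold change −0.15, SE 0.0548, edgeR adjusted p = 0.0467). The enzymes of the main line from citrate to palmitate thus stood at between 83.3% and 90.3% of control, while the acetate enzyme was lower still. Acly lost its call without cKO replicate 3 (edgeR adjusted p = 0.0681) and without control replicate 3 (0.0741). Acaca lost it whichever of the 6 libraries was left out, with edgeR adjusted p-values from 0.0688 without control replicate 1 to 0.131 without cKO replicate 3. Acacb, the carboxylase isoform at the mitochondrial membrane, was low at between 1.29 and 2.85 CPM, and Me1, the malic enzyme that supplies NADPH, was lower still at between 0.433 and 1.01 CPM. Neither passed the test (edgeR adjusted p = 0.27 for Acacb and 0.701 for Me1).

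Of the 5 desaturation genes, 3 were lower past 1.5-fold and 0 were higher. Scd2 and Scd1 encode stearoyl-CoA desaturases, which turn saturated into monounsaturated fatty acids, and per kilobase of the leading transcript they had the highest control levels among the 43 genes, at 160 ± 16.3 and 130 ± 18.4 CPM per kb (SD, n = 3), followed by Acly at 91.5 ± 6.75 CPM per kb. Scd2 (chr19:44293674-44306864, plus strand) was at 517, 377 and 351 CPM in cKO and at 828, 813 and 973 CPM in control libraries. The cKO libraries were all below the controls, with cKO replicate 1 the highest of the 3, and the log2 fold change was −1.07 (SE 0.13, edgeR adjusted p = 9.23e-05). Scd1 (chr19:44394455-44407879, minus strand) was at 360, 316 and 326 CPM against 577, 574 and 729 CPM. Again no cKO library reached a control library, and Scd1 stood at 53.3% of the control level (log2 fold change −0.91, SE 0.0928, edgeR adjusted p = 3.14e-05). Scd1 and Scd2 are similar in sequence and lie near each other on chromosome 19 with Scd3 and Scd4, so reads shared among them could have been divided by the quantification, and the share of each is uncertain. Fads2, which desaturates polyunsaturated fatty acids at the start of their pathway (chr19:10062765-10101746, minus strand), was at 39.4, 26.1 and 26.5 CPM against 52.4, 46.7 and 59.2 CPM (log2 fold change −0.78, SE 0.155, edgeR adjusted p = 0.00201). Its groups were apart, and cKO replicate 1 was again the highest of the cKO libraries. Fads1, the next desaturase of that pathway and a neighbour of Fads2 on chromosome 19, was at 53.3, 49.5 and 47.0 CPM against 52.5, 55.7 and 54.6 CPM, with groups that overlapped (log2 fold change −0.12, edgeR adjusted p = 0.191). Fads3, another gene of the family, was at between 1.22 and 2.22 CPM and did not pass the test (edgeR adjusted p = 0.683).

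Elongation was divided among its 4 genes, 2 of which were lower and 0 higher. Elovl6, which extends chains of the length that fatty acid synthase makes (chr3:129532355-129638495, plus strand), was at 5.97, 6.42 and 4.15 CPM in cKO and at 13.4, 12.4 and 15.8 CPM in control libraries. The highest cKO library, replicate 2, was still far below the lowest control library, replicate 2, and Elovl6 was at 39.8% of the control level (log2 fold change −1.33, SE 0.176, edgeR adjusted p = 0.000161). Elovl5, which extends polyunsaturated chains, was at 93.0, 86.1 and 86.6 CPM against 105, 103 and 103 CPM, with a fall of a smaller size and no overlap (log2 fold change −0.23, SE 0.0536, edgeR adjusted p = 0.00527). Elovl1, which extends very long saturated chains, was at 56.8, 56.4 and 57.2 CPM against 50.1, 50.4 and 59.7 CPM, with control replicate 3 above and the other controls below all cKO libraries (log2 fold change 0.09, edgeR adjusted p = 0.389). Elovl7 was at between 0.0882 and 0.486 CPM, close to the floor, and its log2 fold change of −1.09 had an SE of 0.803 (edgeR adjusted p = 0.293).

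Over the 15 genes of synthesis, desaturation and elongation as 1 group, 9 were lower, or 60.0%, 5 of them past 1.5-fold, and 0 were higher, with a median log2 fold change of −0.26 and a range from −1.33 to 0.25. The same counts over the 13 oxidation genes were 5 lower, or 38.5%, 2 of them past 1.5-fold, and 1 higher, with a median of −0.07 and a range from −0.81 to 0.21. Of all 13296 tested genes, 24.5% were lower, 10.6% were lower past 1.5-fold and 24.1% were higher. The mean log2 CPM of the synthesis genes was 4.54, 4.58 and 4.42 in cKO and 4.96, 4.80 and 5.11 in control libraries. That of the oxidation genes was 5.40, 5.38 and 5.34 in cKO and 5.53, 5.53 and 5.59 in control libraries. Both means were lower in every cKO library than in any control library, by 0.44 for synthesis and by 0.18 for oxidation on the log2 scale. Synthesis minus oxidation was −0.86, −0.80 and −0.93 in cKO and −0.57, −0.73 and −0.48 in control libraries, a mean of −0.86 ± 0.0613 against −0.59 ± 0.129 (SD, n = 3). The groups did not overlap, and the difference of the means was −0.27. Control replicate 3 lay furthest from the cKO libraries, at −0.48, and control replicate 2 nearest, at −0.73. Restricted to the 11 synthesis and 13 oxidation genes with a mean of at least 5 CPM, a choice made after seeing the data, synthesis minus oxidation was 0.90 ± 0.0998 in cKO and 1.25 ± 0.0735 in control libraries (SD, n = 3), a difference of −0.35. These means are descriptions with no test. The median of the oxidation genes depended on the libraries, being 0.0038 without control replicate 3, −0.02 without cKO replicate 3, −0.105 without cKO replicate 1, −0.113 without control replicate 1 and −0.112 without control replicate 2.

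**Figure D2:**
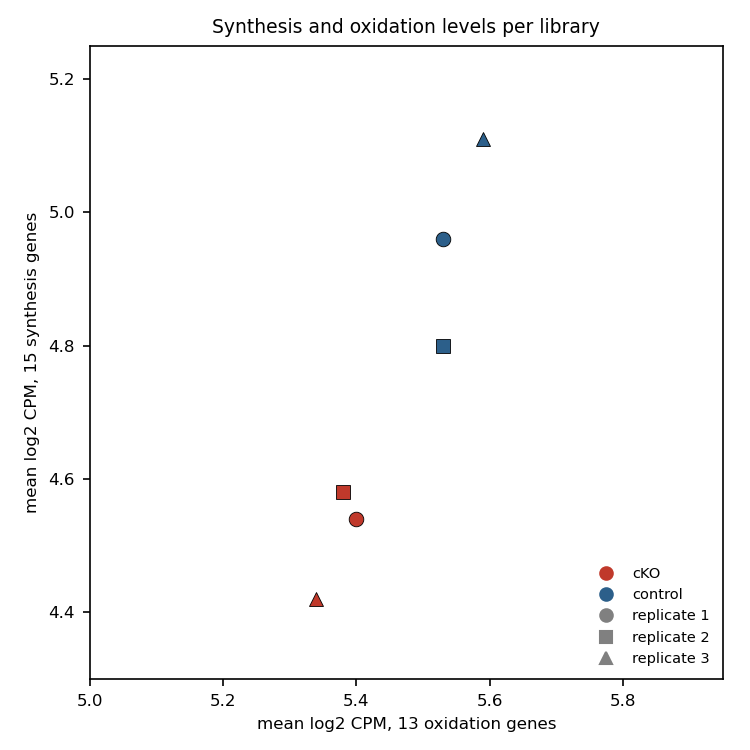
Mean log2 CPM of the 15 synthesis genes (vertical axis) against that of the 13 oxidation genes (horizontal axis) in each of the 6 libraries, with colour for group and symbol for replicate number. The cKO libraries lie between 4.42 and 4.58 on the vertical axis and the control libraries between 4.80 and 5.11, while the horizontal axis separates them by less, 5.34 to 5.40 against 5.53 to 5.59.

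Oxidation began with a lower Cpt1a, which encodes the carnitine palmitoyltransferase of the outer mitochondrial membrane and the entry step of the pathway (chr19:3322334-3385733, plus strand). It was at 22.8, 22.2 and 22.8 CPM in cKO and at 44.6, 39.8 and 34.3 CPM in control libraries. The cKO libraries were nearly equal to one another and all below the controls, at 57.2% of their mean (log2 fold change −0.81, SE 0.103, edgeR adjusted p = 0.000122). The next steps of the shuttle gave other values. Slc25a20, the carnitine-acylcarnitine carrier of the inner membrane, was at 20.1, 24.0 and 23.6 CPM against 23.7, 21.1 and 21.2 CPM, and Cpt2, which returns the acyl group to CoA inside the mitochondrion, at 11.1, 11.6 and 10.3 CPM against 8.69, 11.9 and 12.2 CPM. The groups overlapped for both, with edgeR adjusted p-values of 0.8 and 0.95.

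The acyl-CoA dehydrogenases, which open each round of β-oxidation and differ in the chain length they accept, were divided. Acadvl, for very long chains, was at 36.1, 31.9 and 32.9 CPM in cKO and at 50.5, 47.4 and 47.7 CPM in control libraries (log2 fold change −0.53, SE 0.0782, edgeR adjusted p = 0.00033). Acadl, for long chains, was at 80.7, 75.0 and 71.1 CPM against 94.7, 93.6 and 90.2 CPM (log2 fold change −0.30, SE 0.0605, edgeR adjusted p = 0.0024). Both were lower in every cKO library. Acads, for short chains, was at 29.9, 32.1 and 32.3 CPM against 35.3, 38.5 and 39.1 CPM (log2 fold change −0.26, SE 0.0808, edgeR adjusted p = 0.0228), a call lost without cKO replicate 1 (adjusted p = 0.0852 from edgeR), without cKO replicate 3 (0.0509) and without control replicate 3 (0.0651). Acadm, for medium chains, was at 39.9, 40.0 and 37.7 CPM against 34.9, 34.6 and 42.9 CPM, with control replicate 3 above all others (edgeR adjusted p = 0.618).

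Hadh, the dehydrogenase of the later step for shorter chains (chr3:131233419-131272101, minus strand), was at 20.8, 18.7 and 18.4 CPM in cKO and at 32.9, 31.4 and 34.1 CPM in control libraries. All cKO libraries lay below all controls, at 58.8% of the control level (log2 fold change −0.77, SE 0.0885, edgeR adjusted p = 6.68e-05). Hadha and Hadhb encode the paired subunits of the trifunctional protein, which carries out the last steps for long chains, and their RefSeq starts lie 273 bases apart on opposite strands of chromosome 5. Hadha was at 190, 177 and 167 CPM against 186, 189 and 197 CPM, and Hadhb at 72.9, 72.5 and 64.3 CPM against 72.5, 67.0 and 81.2 CPM. Neither passed the test, with log2 fold changes of −0.10 (SE 0.0569) and −0.07 (SE 0.0808) and edgeR adjusted p-values of 0.187 and 0.485.

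The electron transfer flavoprotein, which takes the electrons of the acyl-CoA dehydrogenases to the respiratory chain, had the oxidation gene that was higher. Etfa, its α subunit, was at 102, 101 and 103 CPM in cKO and at 83.6, 87.2 and 94.2 CPM in control libraries, without overlap (log2 fold change 0.21, SE 0.0578, edgeR adjusted p = 0.0137). Without control replicate 1 its adjusted p from edgeR was 0.0799. Etfb, the β subunit, was at 57.0, 59.6 and 59.6 CPM against 54.8, 52.3 and 58.1 CPM, and Etfdh, the membrane dehydrogenase that accepts its electrons, at 44.8, 41.7 and 41.3 CPM against 38.9, 41.4 and 38.3 CPM. These did not pass the test (edgeR adjusted p = 0.267 and 0.265).

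**Figure D3:**
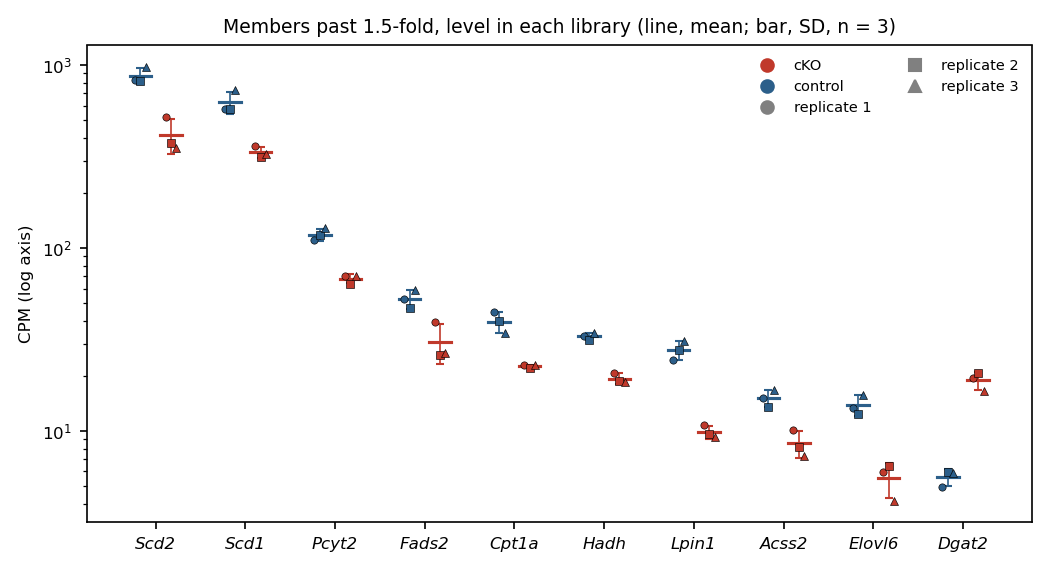
CPM on a log axis of the 10 genes past both cutoffs in each library, with circles, squares and triangles for replicates 1, 2 and 3, a line at the mean and a bar for the SD (n = 3). Within each gene the cKO and control points do not overlap, and Dgat2 is the gene whose cKO points lie above, at 16.5 to 20.7 against 4.92 to 5.93 CPM.

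Glycerolipid assembly held the largest changes of the 43 genes in each direction. Its 7 genes counted 2 higher and 3 lower. Lpin1 encodes lipin 1, a phosphatidate phosphatase that makes diacylglycerol and also acts in the nucleus on lipid genes (chr12:16535669-16610966, minus strand). It was at 10.8, 9.58 and 9.22 CPM in cKO and at 24.5, 27.7 and 30.8 CPM in control libraries. The libraries were widely apart, and Lpin1 was at 35.7% of the control level (log2 fold change −1.49, SE 0.117, edgeR adjusted p = 6.68e-06). Lpin2, its relative, was at 43.9, 38.4 and 40.3 CPM against 57.4, 57.2 and 54.0 CPM, a fall of a lesser size (log2 fold change −0.46, SE 0.0742, edgeR adjusted p = 0.000554). Per kilobase of the leading transcript, Lpin2 was at 13.5 ± 0.455 and Lpin1 at 6.73 ± 0.758 CPM per kb in control libraries (SD, n = 3).

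Dgat2, an enzyme of the last step of triglyceride synthesis at the endoplasmic reticulum and lipid droplets (chr7:99153658-99182719, minus strand), was at 19.5, 20.7 and 16.5 CPM in cKO and at 4.92, 5.93 and 5.90 CPM in control libraries. The lowest cKO library was above the highest control library, and Dgat2 rose 3.38-fold (log2 fold change 1.76, SE 0.134, edgeR adjusted p = 5.41e-06). Dgat1, an unrelated enzyme of the same step, was at 11.2, 12.5 and 10.3 CPM against 13.1, 13.8 and 11.2 CPM, with groups that overlapped (log2 fold change −0.17, SE 0.126, edgeR adjusted p = 0.301). Per kilobase, the control libraries held more Dgat1 (6.72 ± 0.715 CPM per kb) than Dgat2 (2.47 ± 0.254), and the cKO libraries more Dgat2 (8.35 ± 0.962) than Dgat1 (5.98 ± 0.59; SD, n = 3). The order of these genes thus differed between the groups, as a description with no test. The acyltransferases earlier in the pathway were not alike. Agpat5, an acyltransferase of lysophosphatidic acid, was at 64.1, 69.6 and 59.1 CPM against 48.8, 46 and 48.7 CPM and rose (log2 fold change 0.43, SE 0.0747, edgeR adjusted p = 0.000951). Agpat3, of the same family, was at 103, 111 and 110 CPM against 137, 121 and 130 CPM and fell (log2 fold change −0.26, SE 0.0614, edgeR adjusted p = 0.00588). Neither overlapped between groups. Gpam, the mitochondrial acyltransferase that starts the pathway, was at 24.5, 25.9 and 24.8 CPM against 25.6, 27.9 and 22.5 CPM, with a log2 fold change of −0.01 (edgeR adjusted p = 0.918).

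Of the 4 genes for phospholipid head groups, 1 was lower and 1 was higher. Pcyt2, the enzyme that makes CDP-ethanolamine and limits the ethanolamine branch (chr11:120610087-120617936, minus strand), was at 70.2, 63.6 and 70.2 CPM in cKO and at 110, 117 and 128 CPM in control libraries. Every cKO library was below every control library, at 57.5% of their mean (log2 fold change −0.80, SE 0.069, edgeR adjusted p = 1.11e-05). In the choline branch, Pcyt1a, the enzyme that makes CDP-choline, was at 27.0, 27.0 and 28.2 CPM against 29.8, 33.1 and 32.4 CPM and missed the threshold (log2 fold change −0.21, SE 0.0813, edgeR adjusted p = 0.0517), which it passed without control replicate 1 (0.0456). Chka, the choline kinase before it, was at 76.9, 81.0 and 69.4 CPM against 77.0, 88.3 and 77.8 CPM, with groups that overlapped (edgeR adjusted p = 0.323). Cept1, which completes phosphatidylcholine and phosphatidylethanolamine and so serves both branches, was at 37.3, 33.2 and 32.2 CPM against 25.6, 25.1 and 28.3 CPM and rose (log2 fold change 0.38, SE 0.0918, edgeR adjusted p = 0.0064). All cKO libraries lay above all controls for Cept1.

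The long-chain acyl-CoA synthetases, which activate fatty acids for either fate, counted 2 lower and 1 higher of 4. Acsl5, an isoform of mitochondria and the endoplasmic reticulum, was at 130, 132 and 125 CPM in cKO and at 176, 162 and 177 CPM in control libraries (log2 fold change −0.41, SE 0.0543, edgeR adjusted p = 0.000153). Acsl3, found on lipid droplets and the endoplasmic reticulum, was at 45.4, 34.9 and 41.0 CPM against 51.7, 46.9 and 51.5 CPM (log2 fold change −0.31, SE 0.099, edgeR adjusted p = 0.0263). Acsl1, at 41.8, 42.3 and 37.1 CPM against 35.0, 33.0 and 32.7 CPM, went the other way (log2 fold change 0.27, SE 0.0826, edgeR adjusted p = 0.0222). Acsl4, which prefers arachidonic acid, was at 71.4, 69.7 and 63.3 CPM against 74.0, 78.0 and 76.7 CPM and missed the threshold (log2 fold change −0.16, edgeR adjusted p = 0.0516), which it passed without cKO replicate 1 (0.0438). For all 4 genes the groups were apart. The calls of Acsl1 and Acsl3 were each lost when 1 of 4 libraries was left out. With edgeR, Acsl1 had an adjusted p of 0.0781 without cKO replicate 1, 0.0693 without cKO replicate 2, 0.057 without control replicate 2 and 0.0524 without control replicate 3. Acsl3 had 0.0759 without cKO replicate 2, 0.059 without cKO replicate 3, 0.0906 without control replicate 1 and 0.0685 without control replicate 3.

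Libraries differed in Xist, the RNA of the inactive X chromosome, with 0, 53272 and 10 counts in the cKO and 58899, 70912 and 16 counts in the control libraries. All 25 genes that passed the test had groups that did not overlap, which fixes their direction within the libraries with Xist (1 cKO, 2 control) and within those without (2 cKO, 1 control), so that only the sizes of these differences, compared after seeing the data, are given. For Elovl6 the log2 difference was −0.995 with and −1.64 without Xist, for Fasn −0.11 and −0.42, for Cpt1a −0.92 and −0.59, and for Dgat2 1.92 and 1.59. Synthesis minus oxidation differed by −0.15 in the libraries with Xist and by −0.41 in those without, and over the genes with at least 5 CPM by −0.33 and −0.43. Control replicate 3, the control library without Xist, had the highest level of Fasn, Scd1, Scd2, Elovl6, Acss2 and Lpin1.

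**Figure D4:**
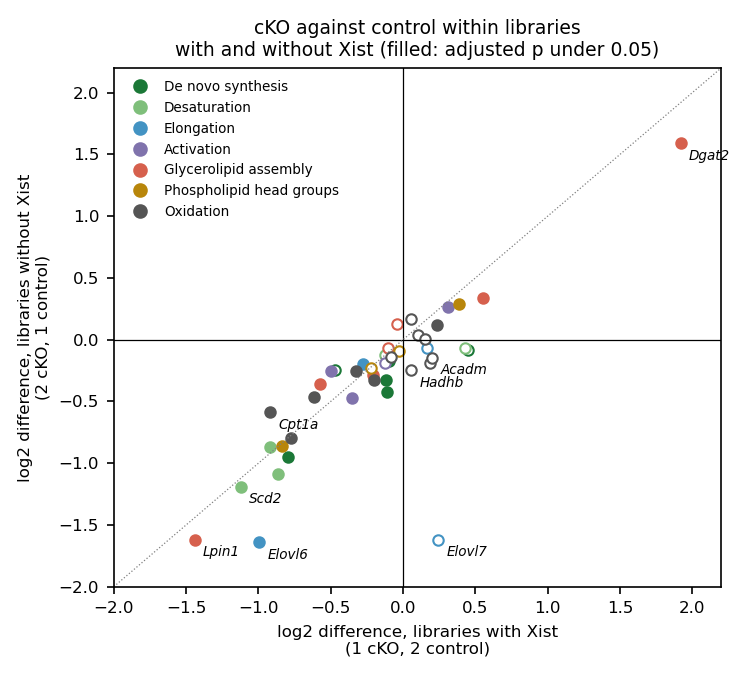
Log2 difference of cKO from control for the 43 genes within the libraries with Xist (horizontal axis, 1 cKO and 2 control) and within those without (vertical axis, 2 cKO and 1 control), with colour for role and filled points for an adjusted p under 0.05. The dotted line marks equal differences, with Dgat2 at 1.92 and 1.59 and Elovl6 at −0.995 and −1.64, and the sign of the filled points is fixed by their groups not overlapping.

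Other genes of lipid metabolism, 140 in 10 lists, had 115 tested members, with a median log2 fold change of −0.23. Of these 115, 25 (21.7%) were higher and 46 (40%) were lower. Of all tested genes, 24.1% were higher and 24.5% were lower. The regulators of lipid synthesis counted 8 lower and 0 higher of 13 tested. Srebf2 and Srebf1 encode the SREBP factors, which drive genes of sterol and fatty acid synthesis. Srebf2 was at 530, 491 and 474 CPM in cKO and 684, 680 and 712 CPM in control libraries (log2 fold change −0.47, SE 0.0526, edgeR adjusted p = 5.16e-05), and Srebf1 at 154, 122 and 137 CPM against 177, 181 and 184 CPM (log2 fold change −0.39, SE 0.0778, edgeR adjusted p = 0.00199). Insig1, which holds the SREBP complex in the endoplasmic reticulum and is itself a known SREBP target, was at 120, 121 and 122 CPM against 306, 302 and 307 CPM (log2 fold change −1.33, SE 0.0442, edgeR adjusted p = 2.31e-07). Slc25a1, the carrier that exports citrate from mitochondria, had a log2 fold change of −0.72 and Nr1h2, which encodes LXRβ, of −0.69.

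Among regulators of oxidation, 7 were lower and 3 higher of 12 tested. The shares over all tested genes were 24.5% lower and 24.1% higher. Ppard, a nuclear receptor for fatty acids, was at 13.8, 11.8 and 12.0 CPM in cKO and 24.7, 28.2 and 23.4 CPM in control libraries (log2 fold change −1.02, SE 0.111, edgeR adjusted p = 4.55e-05). Ppargc1b, a coactivator of mitochondrial genes, was higher at 2.98, 7.78 and 5.89 CPM against 2.04, 2.24 and 1.94 CPM (log2 fold change 1.42, SE 0.316, edgeR adjusted p = 0.00398). Prkaa2, a catalytic subunit of AMPK, was called higher at a low level, 0.815, 0.8 and 1.06 CPM against 0, 0.331 and 0.146 CPM. Other mitochondrial oxidation enzymes counted 6 lower (35.3%) and 5 higher (29.4%) of 17. Acaa2, the thiolase of the last step, was at −0.80, Eci2 at −0.61 and Eci1 at 1.19. Eci1 and Eci2 are isomerases for unsaturated chains. Eci1 was at 30.6, 33.8 and 36.3 CPM against 13.8, 14.5 and 16.0 CPM. Peroxisomal oxidation counted 6 lower and 2 higher of 14, with Acox3, an acyl-CoA oxidase, at −1.33, Ehhadh at −0.88 and the reductase Pecr at 0.87.

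On the side of synthesis and storage, the list of elongation cycle partners also holds genes of the cytochrome b5 electron supply. It counted 4 higher and 2 lower of 8. The dehydratases Hacd1 and Hacd2 were at 0.82 and 0.45 and the electron donor Cyb5a, a cytochrome b5, at −0.52. The list of isoenzymes of the synthesis genes, which also holds relatives of the activation genes such as Acsbg1, counted 4 lower and 1 higher of 8. Acss1, the mitochondrial counterpart of Acss2, was at −1.06 (33.8, 29.9 and 29.0 CPM against 62.3, 66.4 and 63.9 CPM). The low genes Acsbg1 and Elovl4 were at −2.56 and 2.02. Isoenzymes of the glycerolipid genes counted 5 lower (33.3%) and 4 higher (26.7%) of 15, with Pcyt1b at −0.95 and Agpat9, now named Gpat3, at −0.93. Over all tested genes the shares were 24.5% lower and 24.1% higher. Lpin3 was called lower near the floor, at 0.0661, 0.0889 and 0 CPM against 0.554, 0.331 and 1.17 CPM. Genes for acidic phospholipids and cardiolipin, the phospholipid of the inner mitochondrial membrane, counted 5 higher and 0 lower of 10. Of these, Ptpmt1, the phosphatase that makes phosphatidylglycerol, was at 0.74, Taz, the tafazzin that remodels cardiolipin, at 0.60, and Cdipt, which makes phosphatidylinositol, at 0.55. Lipid droplet and lipolysis genes counted 6 lower and 0 higher of 10, with the lipase Mgll at −1.06, the droplet coat gene Plin3 at −0.99 and Lipa, the acid lipase of lysosomes, at −0.64. Fatty acid uptake and binding counted 2 lower and 1 higher of 8, with Dbi, the acyl-CoA binding protein, at −0.69, Slc27a1 at −0.45 and Mfsd2a at 0.80. These values are log2 fold changes of genes that passed edgeR's test.

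**Figure D5:**
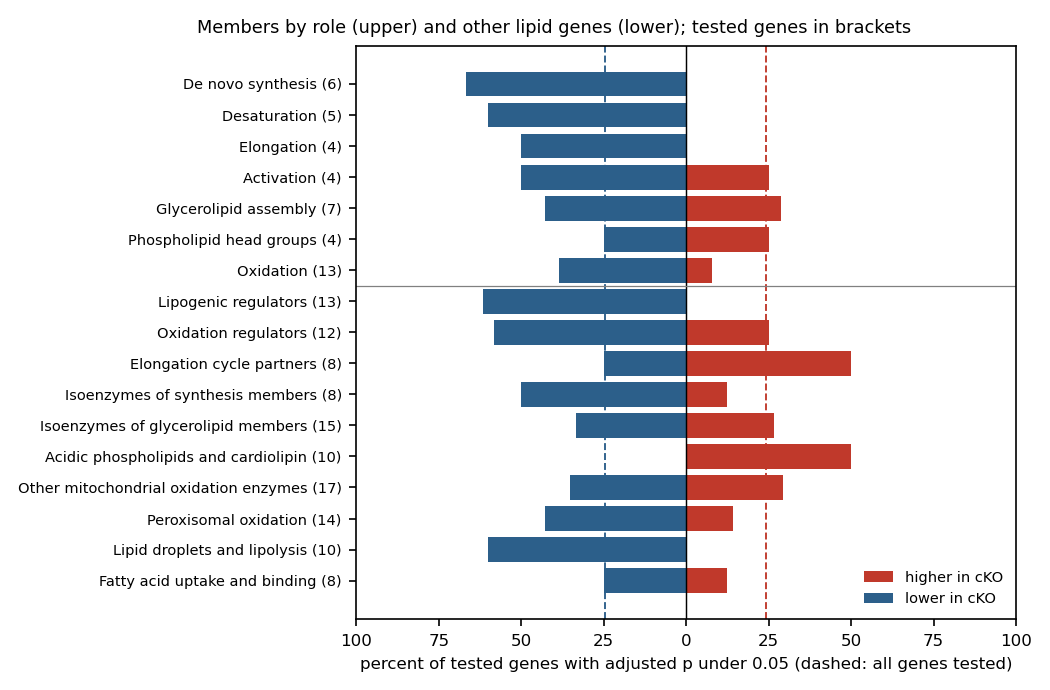
Percent of tested genes that were higher (red, right) or lower (blue, left) in cKO at an adjusted p under 0.05, for the 43 genes by role above the grey line and for the other lipid lists below it, with the number of tested genes in brackets. Dashed lines mark all genes tested, 24.1% higher and 24.5% lower. Bars for de novo synthesis, desaturation, elongation, lipogenic regulators and lipid droplets and lipolysis extend to the left alone, and that for acidic phospholipids and cardiolipin to the right alone.

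Markers of other cells were also measured. The 16 fibroblast markers, which the feeder cells would carry, summed to 122, 127 and 108 CPM in cKO and to 146, 140 and 78.5 CPM in control libraries, with Postn at 0 and 5 of the 16 under 1 CPM in every library. Of the 13 tested, 2 were called higher without overlap, Fn1 at 210% and Col5a1 at 305% of control, and 2 lower, Thbs1 at 53.7% and Lox at 34.8%. The sum was lowest in control replicate 3, the library with the highest Scd1, Scd2, Fasn and Lpin1. The 6 myeloid markers summed to 4.08, 5.33 and 6.06 CPM in cKO and to 1.22, 1.53 and 2.45 CPM in control libraries, with Cd14 at 0 and 5 of the 6 under 1 CPM in every library. Most of this sum was Adgre1, called higher at 3.64, 4.67 and 5.54 CPM against 0.62, 0.916 and 2.02 CPM, while Itgam was at 47.3% of control and did not pass the test (edgeR adjusted p = 0.204). The 6 T cell markers in the table summed to at most 0.487 CPM. The plasma cell markers summed to 724, 788 and 646 CPM against 852, 847 and 831 CPM, with members called in both directions. Irf4 was at 134% and Sdc1 at 302% of control, while Xbp1 was at 46.7%, Prdm1 at 45.6% and Jchain at 6.24%. The part of these markers, and of Bcl6, Fas and Mef2b, in the values above was not tested. The markers named beside these sums were chosen after their values were seen.

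Transcript use was tested for the 8 genes with at least 2 tested RefSeq transcripts. None of the 8 was called by the Simes test of edgeR's diffSpliceDGE, which called 0.702% of the 2990 genes tested, and 2 of the 8 were below an unadjusted p of 0.05. These were Acly, whose leading transcript took 77.5 ± 2.3% of the counts in cKO and 54.9 ± 4.77% in control libraries (SD, n = 3, adjusted p = 0.181 from edgeR), and Pcyt1a, at 73.6 ± 15.5% against 99.2 ± 1.09% (adjusted p = 0.291 from edgeR). By the F test of the same fit, 1 of the 8, Acly, was called (adjusted p = 0.00165 from edgeR), where this test called 97 of the 2990 genes, or 3.24%. Acly and Pcyt1a were named after their values were seen. Estimates for transcripts scattered widely in some genes, as for Lpin1, whose leading transcript took 40.5 ± 52.6% in cKO and 92.7 ± 6.9% in control libraries (SD, n = 3), and for which a level per kilobase is therefore given in control libraries alone.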

How the data were processed

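RNA-seq libraries of YFP+ iGCBs, 3 cKO and 3 control, were analysed, with groups taken from the sample labels. After trimming, the authors used HISAT2 for alignment and StringTie for quantification, and deposited estimated counts of genes and of RefSeq transcripts, without normalization. The build is mm10 per the labels, and tool versions and annotation release are not given in the sources used here. As deposited, all estimated counts are whole, and since they derive from coverage they are not numbers of fragments. Reads from overlapping or near-identical genes could have been divided by this step.

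Genes were kept by filterByExpr (minimum count 10), normalized by TMM and tested in R 4.3.3 with edgeR 4.0.16 (glmQLFit, glmQLFTest, no covariate), with Benjamini-Hochberg adjustment over all 13296 tested genes. Calls used an adjusted p of 0.05, alone or with a fold change of 1.5. Log2 CPM used a prior count of 2. The study calls the libraries biological replicates, but neither labels nor methods say which mice gave each. The p-values therefore set a difference against the spread between these samples, which may be partly technical. DESeq2 1.42.0, other normalizations and filters, halved counts, the replicate number, Xist level and each library left out were alternatives. The fits were tested on simulated data. Transcripts were assigned to genes for 34674 of 36026 transcripts with a RefSeq table of GRCm38.p6, the source of the promoter sequences. Positions of genes were looked up by symbol in GENCODE M21 (GRCm38), with 4 listed symbols found under an older one.

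All 43 genes are named. Of each other list, at most the 3 genes with the largest absolute log2 fold change among those called are named, with Srebf1 and Srebf2. The members and lists were chosen with earlier results of these data known. Some of the listed marker genes are not reported here.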

Additional observations from a re-analysis of the deposited data

Results flagged for a closer look

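For 8 of the 18 genes that did not pass the test, the mean of cKO lay on opposite sides of the control mean in the libraries with Xist (1 cKO, 2 control) and in those without (2 cKO, 1 control), and this contrast was not tested. For 5 of them, Me1, Fads3, Elovl7, Gpam and Cpt2, cKO and control libraries overlapped in at least 1 of these sets, and for the other 3 they did not. The log2 difference of cKO from control was 0.166 with and −0.068 without Xist for Elovl1, 0.202 and −0.146 for Acadm, and 0.0558 and −0.243 for Hadhb. Control replicate 3, the control library without Xist, was the highest of the 6 libraries for these genes. For Hadhb, cKO replicate 2 and control replicate 1, both with Xist, were equal at 72.5 CPM to the digits given, so the groups were barely apart among the libraries with Xist.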

How the results depend on the processing

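Under 14 alternatives, 19 of the 25 called genes were called every time and 6 (Acly, Acaca, Acsl1, Acsl3, Acads and Etfa) lost the call under at least 1. Acaca lost it under 12, with DESeq2 (adjusted p = 0.0841) among them. Of the 18 genes not called, 2 (Acsl4 and Pcyt1a) were called under an alternative and 5 changed sign, the cause of which was not tested. With Xist level as a factor the log2 fold change of Gpam was 0.0423 and that of Cpt2 −0.00707. With each library left out in turn, values ranged from −0.0905 to 0.051 for Gpam, −0.128 to 0.105 for Cpt2, −0.00928 to 0.114 for Slc25a20, −0.0519 to 0.322 for Fads3 and −0.145 to 0.0038 for Hadhb, and the median log2 fold change of the oxidation genes ranged from −0.113 to 0.0038. Transcript use called 1 of the 8 genes, Acly, by the F test and 1, again Acly, with at least 10 counts in every library (edgeR adjusted p = 0.025), the cause of which was not tested.

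Same-numbered cKO and control libraries had correlations of 0.00851, 0.0839 and 0.133 in their deviations from the group means, and since not every one was above 0.1 the numbers were not taken to pair the samples. With the replicate block, 5 of the 43 genes were higher and 19 lower, and 3069 of all genes were higher and 3165 lower. Elovl7, Me1, Fads3 and Acacb were measured at no more than 2.85 CPM in any library, with SEs of 0.299 to 0.803. For these genes a difference larger than its SE could go uncalled. Acacb is an example, at −0.498 with an SE of 0.349 (edgeR adjusted p = 0.27).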
